A study of Homo sapiens with 6 samples.

Results

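The genes described here encode 10 ligands of immune checkpoint receptors: CD274 (PD-L1), PDCD1LG2 (PD-L2), CD276, VTCN1, CD80, CD86, PVR, PVRL2 (now NECTIN2), LGALS9 and CD47. They were taken by symbol from the array's platform annotation, using probe set rows that name exactly 1 gene, and all 10 of the 10 were found. They hold 281 of the 924687 rows tested, with 20 to 36 rows each, and are 10 of the 22085 genes for which a mean over rows could be formed. The cells were BT549, an established human line from a triple-negative breast cancer (a tumour without estrogen receptor, progesterone receptor or HER2 amplification), carrying a pTripZ construct from which doxycycline switches on the microRNA miR-200c. One group was 3 untreated cultures, and the other was 3 cultures kept for 48 h in 1 µg/mL doxycycline. All 6 carried the construct, no culture without it was given the drug, and the labels do not say whether the line is 1 clone, so effects of doxycycline and of miR-200c cannot be told apart. The replicates A, B and C are called biological, but no label says what the letters stand for, and every error and p-value covers only how these 6 cultures vary, which may be technical.

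Checkpoint ligands sit on a cell's surface and are read by receptors on lymphocytes and macrophages. PD-L1 and PD-L2 bind PD-1 and dampen T cells, CD80 and CD86 bind CD28 and CTLA-4, PVR and nectin-2 bind TIGIT and CD226, and CD47 binds SIRPA on macrophages and restrains phagocytosis. Interferon-gamma is the best known inducer of PD-L1, and the microRNAs of the miR-200 family are known to repress the transcription factor ZEB1 and to favour the epithelial state. A microRNA recognises its targets mainly through its seed, bases 2 to 8. The mature sequences from RefSeq (GRCh38.p14) are shown 5′ to 3′ with the seed in capitals, because miR-200c shares its seed with miR-200b and differs from its chromosome 12 neighbour miR-141 within it.
hsa-miR-200c-3p (chr12:6963742-6963764, plus strand): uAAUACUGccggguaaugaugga
hsa-miR-200b-3p (chr1:1167160-1167181, plus strand): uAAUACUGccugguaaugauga
hsa-miR-141-3p (chr12:6964155-6964176, plus strand): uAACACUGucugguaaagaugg

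Values are log2 intensities as the authors deposited them, 1 per row and array, and a gene's value is the mean over its rows. A row is either an exon region (PSR) or an exon junction (JUC). The array also has 23 background rows, whose means over the 6 arrays ran from 4.10 to 6.29 with a median of 4.52. A group mean at or below the brightest background row of that group (6.31 untreated, 6.26 in doxycycline) is described as within the background range, and 36.2% of the rows tested lay above that range. The induction was visible in the data: the single MIR200C row went from 4.67, 5.15 and 5.07 untreated to 9.50, 9.53 and 9.55 in doxycycline, and ZEB1 went from 7.44, 7.52 and 7.51 to 6.71, 6.71 and 6.75. The arrays had medians between 5.18 and 5.21 and correlated at 0.994 or more over genes. The estrogen and progesterone receptor genes ESR1 and PGR lay in the background range in both groups. Vimentin (VIM), a mesenchymal marker, was at 10.46 untreated and did not pass the test (limma adjusted p = 0.213). Of 10 measured breast line markers 5 rose and 2 fell at limma adjusted p below 0.05, where 6.06% and 3.84% of all genes did. The epithelial markers CDH1, KRT8 and KRT18 rose by 1.77, 1.10 and 0.52, from 5.33, 8.07 and 10.01 untreated, the first within background. EPCAM rose by 0.49 within background in both groups. The mesenchymal marker CDH2 rose by 0.15, while FN1 and ZEB1 fell by 0.41 and 0.77. ERBB2, the gene of HER2, had no row naming it alone, so it was not used here.

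The 2 ligands of PD-1 were lower in doxycycline, and none of the other 8 genes passed the test over all genes. PDCD1LG2 measured 6.65, 6.72 and 6.89 in untreated cultures (in the order A, B, C, as throughout) against 5.88, 5.96 and 6.0 in doxycycline. All 3 treated values lay below all 3 untreated values, and the treated mean lay within the background range while the untreated mean lay above it. The log2 change was -0.81 (SE 0.06, from 6.76 ± 0.12 to 5.94 ± 0.061, SD, n = 3, limma adjusted p = 1.12e-04), a 1.76-fold lower measured value, and at least 1.41-fold lower when treated values are set at no less than each array's brightest background row.

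CD274 measured 5.70, 5.74 and 5.93 on the untreated arrays and 5.21, 5.23 and 5.21 on the treated ones. The groups did not overlap, and both means lay within the background range, so no bound on the fold is given. The log2 change was -0.58 (SE 0.06, from 5.79 ± 0.12 to 5.22 ± 0.016, SD, n = 3, limma adjusted p = 4.38e-04). Over all 22085 genes, 3.84% fell and 6.06% rose at the same threshold, 9.9% in all. Groups did not overlap in 26% of genes, 11.8% with lower and 14.3% with higher treated values. Ordered from the most negative change, PDCD1LG2 ranked 16 and CD274 ranked 71, and the 1st percentile of all gene changes was -0.38. Whether the genes fell by different amounts was not tested. In bulk RNA, fewer cells with a transcript and less of it per cell cannot be told apart.

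**Figure D1:**
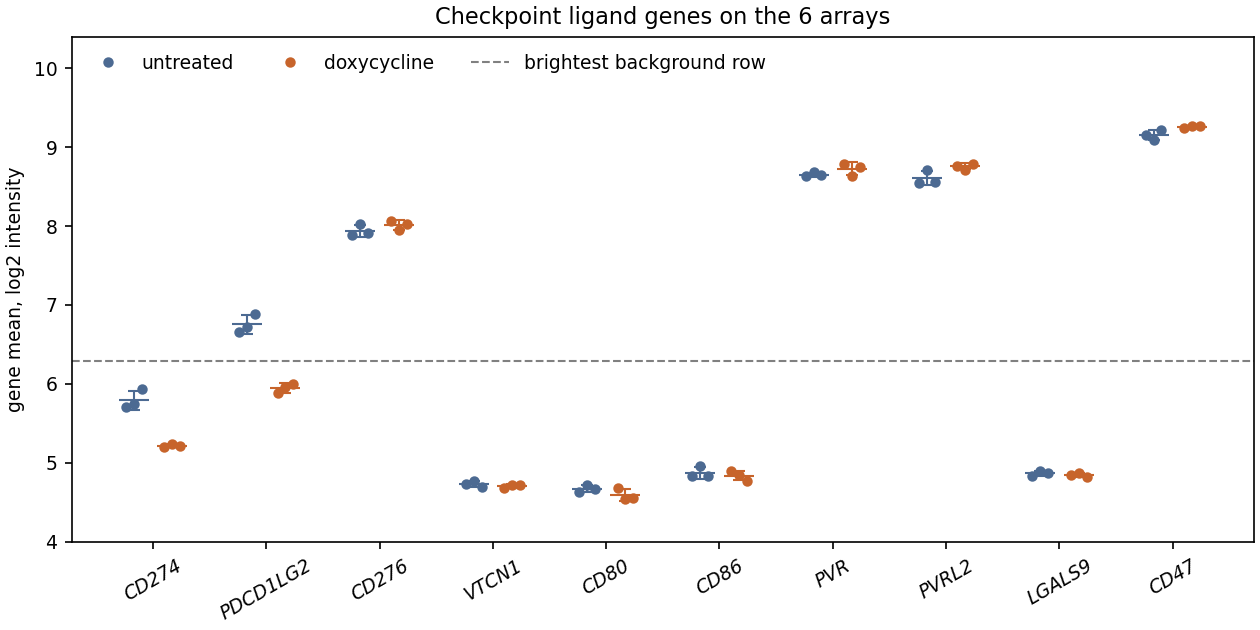
Mean log2 intensity over the rows of each gene (vertical axis) for the 10 genes, with 3 points per group, the group mean as a long tick and the SD as a bar; the dashed line at 6.29 is the mean of the brightest background row. The treated points of CD274 and PDCD1LG2 lie below their untreated points, while CD276, PVR, PVRL2 and CD47 lie above the dashed line in both groups and the other 4 genes lie between 4.54 and 4.96.

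**Figure D2:**
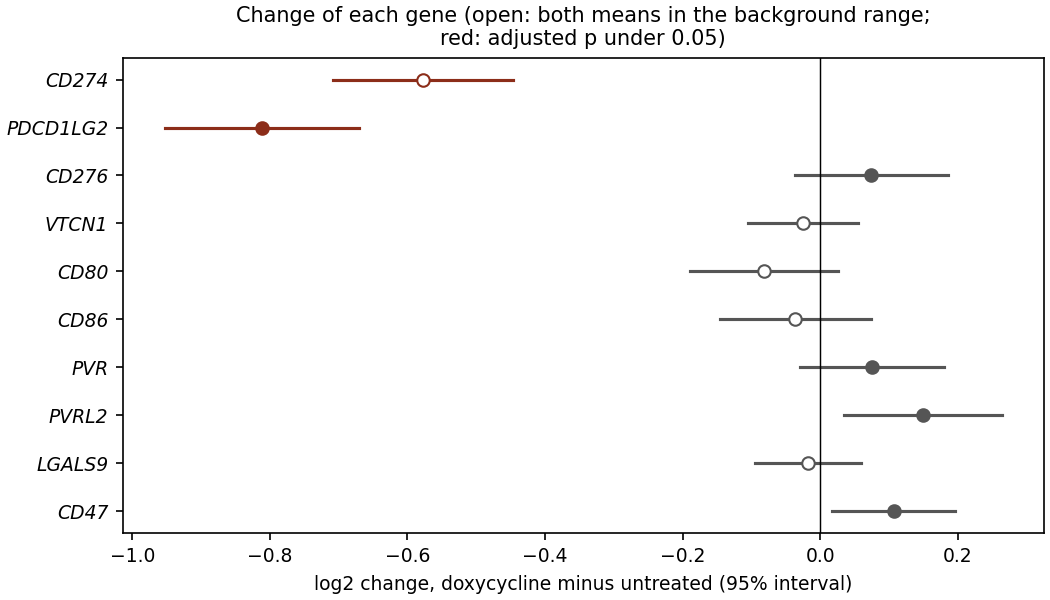
Log2 change from untreated to doxycycline (horizontal axis) for each gene with its 95% interval from limma, n = 3 arrays per group. The intervals of CD274 (-0.71 to -0.45) and PDCD1LG2 (-0.95 to -0.67) lie wholly below the other 8.

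These changes were also measured row by row, though the sources used here do not place the rows along the transcripts. PDCD1LG2 had 21 rows, 12 of them above the background range by their mean over the 6 arrays. All 12 of these were lower in doxycycline, 10 of them without overlap between groups, against 10.2% of all rows above background, and their median change was -1.22. In the fit over all 924687 rows, in which 0.277% fell and 0.728% changed either way, 6 rows of PDCD1LG2 fell. 5 of these were among the rows above background, of which 0.688% fell and 1.69% changed either way over all genes. Exon region PSR09000503 had the smallest p, with 8.57, 8.59 and 8.45 untreated and 7.19, 7.48 and 7.54 in doxycycline (log2 change -1.13, limma adjusted p = 0.0109). PSR09000499 went from 8.34, 8.77 and 8.84 to 7.25, 7.21 and 7.01 (log2 change -1.49, limma adjusted p = 0.0118). PSR09000504 went from 7.03, 7.11 and 7.31 to 5.69, 5.66 and 6.09 (log2 change -1.34, limma adjusted p = 0.0144). Each of these 3 exon regions separated the groups on every array, and the brightest row, junction JUC09000302, did so as well, at 9.59, 9.81 and 10.34 untreated against 8.43, 8.48 and 8.89, but did not pass the test (limma adjusted p = 0.0613). In the other 2 rows above background, singled out after their values were seen, the groups overlapped. PSR09000510 had 6.83, 7.62 and 7.28 against 7.30, 7.11 and 6.49, and PSR09000506 had 6.68, 7.40 and 6.60 against 6.41, 6.26 and 6.67.

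CD274 had 28 rows, of which 7 lay above the background range and 21 within it, and 25 of the 28 had lower treated means. The groups did not overlap in 16 rows, all lower in doxycycline, against 7.47% of all rows. All 7 brighter rows had lower means in doxycycline, with changes from -1.46 to -0.05. In 5 of them the groups did not overlap, against 10.2% of all rows above background. In the fit over all rows 6 rows of CD274 fell, where 0.277% of all rows did. All 6 were exon regions, of which the gene has 19. PSR09000484 went from 6.09, 5.92 and 6.50 to 4.57, 4.83 and 4.68, a log2 change of -1.48 with both means in the background range (limma adjusted p = 0.0155). PSR09000487 fell by 1.14, also with both means in that range (limma adjusted p = 0.0331). PSR09000476 fell by 0.64 from 6.74 to 6.10 (limma adjusted p = 0.0367). The brightest row of the gene, PSR09000472, held 8.73, 8.44 and 8.85 untreated and 8.62, 8.49 and 8.76 in doxycycline, so that its groups overlapped, and it was singled out after its values were seen.

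No single row call of these genes held in every fit with 1 array left out, and the number of fallen rows, 12 over both genes, ranged from 0 to 6 in those fits. It was 0 without treated array B, 2 without untreated array A and 2 without untreated array C, 3 without treated array C, 4 without treated array A and 6 without untreated array B. The gene means, in contrast, stayed past the threshold in all 6 such fits, with changes of -0.86 to -0.75 for PDCD1LG2 and -0.62 to -0.51 for CD274. Junction rows alone gave -0.74 for PDCD1LG2 and -0.42 for CD274, and exon regions alone gave -0.88 and -0.65, all past the threshold in limma.

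**Figure D3:**
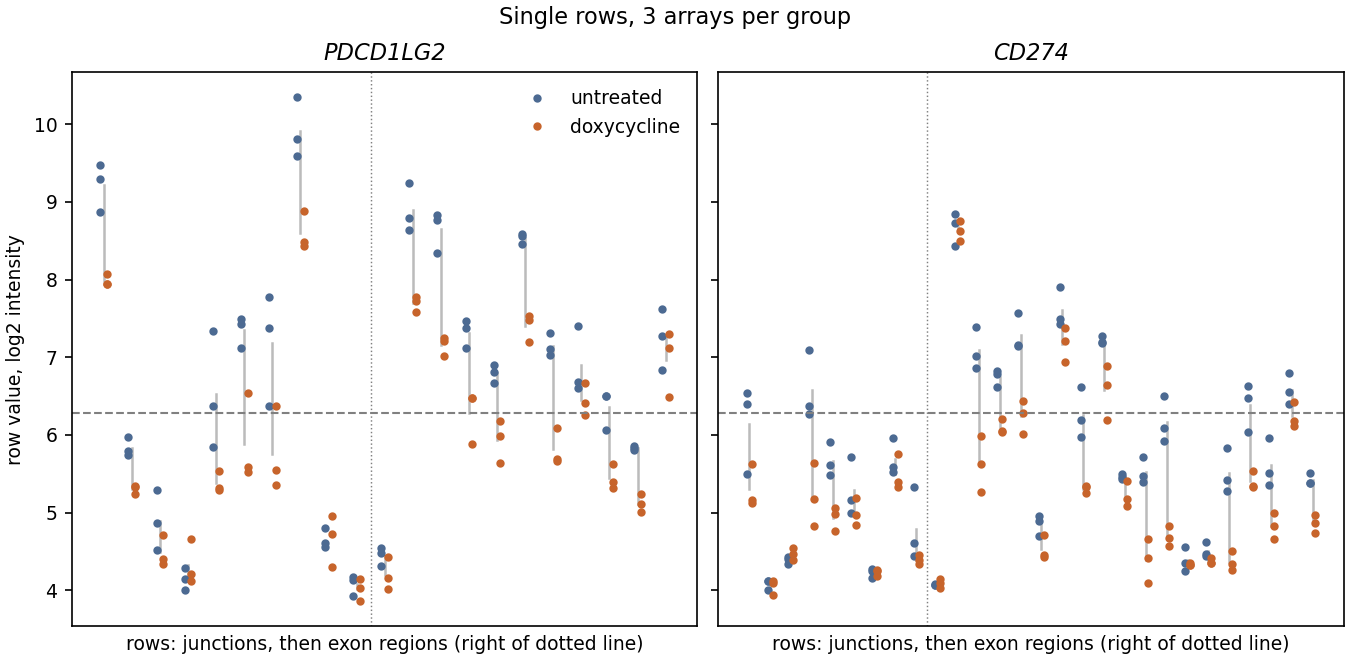
Log2 intensity (vertical axis) of every row of PDCD1LG2 (21 rows) and CD274 (28 rows), with 3 untreated and 3 doxycycline arrays as points and a grey line joining the group means; the dashed line is the brightest background row. In PDCD1LG2 the brighter rows have lower treated means, whereas in CD274 the brightest row, near 8.6, has overlapping groups.

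The promoter of CD274 is shown because that gene fell and its interferon-responsive elements are well described. The 250 bases upstream of the RefSeq start (GRCh38.p14, chr9:5450292-5450541, plus strand, 5′ to 3′) hold 2 overlapping matches to the core of the interferon-stimulated response element (ISRE: GAAA, then 2 bases of any kind, then GAAA, on either strand), drawn in capitals as they read on this strand.
CD274: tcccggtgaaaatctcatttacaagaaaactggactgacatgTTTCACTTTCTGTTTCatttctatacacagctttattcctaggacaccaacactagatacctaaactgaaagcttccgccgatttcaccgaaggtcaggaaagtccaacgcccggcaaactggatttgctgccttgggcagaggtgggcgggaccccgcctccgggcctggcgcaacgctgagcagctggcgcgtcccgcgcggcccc
The capitals span 208 to 193 bases upstream of the start. Of 35116 windows of this length over all genes, 3.02% held this motif. The window also held 1 match to the STAT-binding GAS motif (TTCNNNGAA), which 6.57% of windows hold, and none to the E-box letters bound by ZEB1 (CAGGTA or CAGGTG, either strand), which 23.8% hold. Promoter windows were found for 9 of the 10 genes, 11 windows in all, and not for PDCD1LG2. No other window held the ISRE core or GAS, and the E-box letters occurred once each in the windows of VTCN1, CD86 (1 of 2 windows) and PVR. A match is a string of letters and not evidence of binding.

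CD274 and PDCD1LG2 lie next to each other on chromosome 9 in RefSeq, so the genes around them are described too. Upstream of CD274, PLGRKT, which encodes a plasminogen receptor, had a log2 change of 0.11 with both means in the background range (limma adjusted p = 0.10). The relaxin-family genes RLN1, RLN2 and INSL4 did not pass either, and both means of each also lay in the background range. On the other side, RIC1 (listed as KIAA1432), which encodes a partner in a Golgi trafficking complex, fell by 0.75 (from 8.64 ± 0.055 to 7.89 ± 0.032, SD, n = 3, limma adjusted p = 1.75e-05). Its neighbour ERMP1, which encodes an endoplasmic reticulum metallopeptidase, rose by 0.74 (from 8.31 ± 0.051 to 9.04 ± 0.038, SD, n = 3, limma adjusted p = 1.96e-05). BRD10 (listed as KIAA2026) did not pass, nor did MLANA, which had both means in the background range. So 3 consecutive genes fell, and the next one rose. These neighbours were picked by position, after earlier results of these data were known.

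**Figure D4:**
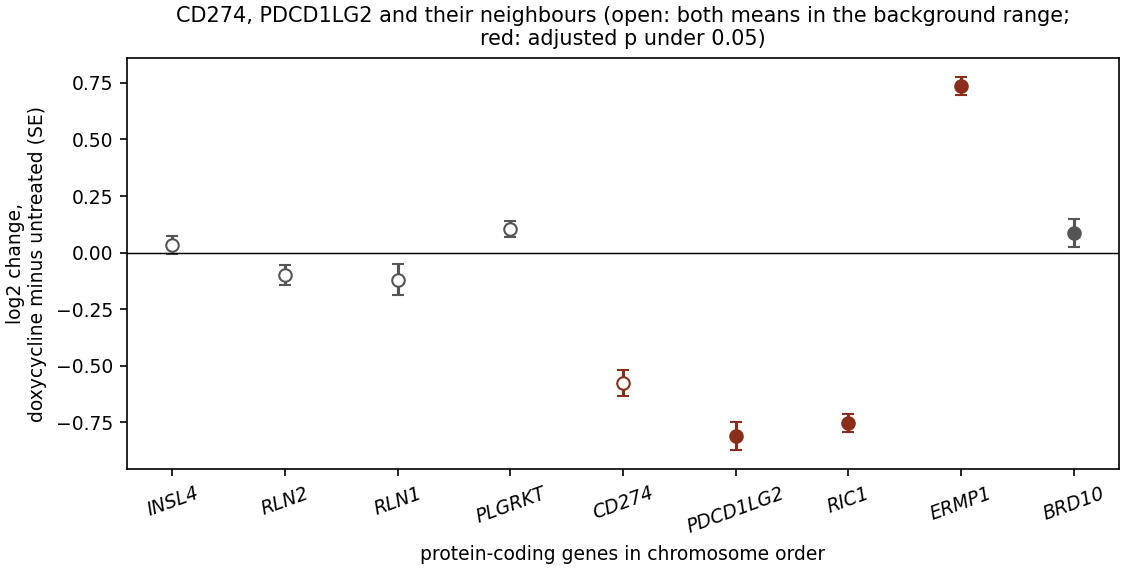
Log2 change with SE (vertical axis) for CD274, PDCD1LG2 and the protein-coding genes around them in chromosome order, n = 3 arrays per group. CD274, PDCD1LG2 and RIC1 lie between -0.81 and -0.58, while ERMP1 lies at 0.74 and the other genes lie within 0.12 of no change.

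The genes whose profile over the 6 arrays was most like each PD-1 ligand were found as the smallest root mean square difference between log2 values centred on each gene's mean. For PDCD1LG2 these were ZEB1 (0.067), STRADB (0.067), LOX (0.067), SCML1 (0.082) and its own neighbour KIAA1432 (0.083). ZEB1 encodes the repressor of epithelial genes, STRADB a pseudokinase that binds the kinase LKB1, LOX a collagen crosslinking enzyme and SCML1 a Polycomb-group-like protein. For CD274 they were PMAIP1 (0.049), a p53-responsive cell death gene, RAB8B (0.056), a vesicle trafficking GTPase gene, the interferon-stimulated gene SAMD9 (0.056), the cholesterol transporter gene NPC1 (0.061) and DUSP6 (0.063), a phosphatase of ERK kinases. CD274 and PDCD1LG2 were less alike to one another: their difference was 0.12, and PDCD1LG2 ranked 108 among the genes closest to CD274. By its construction this measure is small for genes that fell by a similar amount.

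The costimulatory ligands CD80 and CD86, normally made by antigen-presenting cells, were within the background range in both groups. CD80 had gene means of 4.63, 4.72 and 4.67 untreated and 4.68, 4.54 and 4.55 in doxycycline, with overlapping groups and a change of -0.08 (95% interval -0.19 to 0.03, limma adjusted p = 0.385). Of its 22 rows 20 lay within the background range, and over the other 2 alone the change was -0.53 and did not pass (limma adjusted p = 0.210). The largest row change, in PSR03030372, had overlapping groups, with 7.29, 6.16 and 7.39 against 6.43, 5.93 and 5.35 (log2 change -1.04, limma adjusted p = 0.425). CD86 had gene means of 4.83, 4.96 and 4.83 untreated and 4.89, 4.84 and 4.77 in doxycycline, a change of -0.04 (95% interval -0.15 to 0.07, limma adjusted p = 0.750). Its 5 rows above background were all junctions, the brightest of which, JUC03005654, held 8.23, 8.27 and 8.29 against 8.38, 8.48 and 8.11, while its 19 exon regions all lay within the background range. No single row of CD80 or CD86 passed the test.

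CD276, which encodes B7-H3, an immune ligand common on tumour cells, was well above background and did not pass the test. Its gene means were 7.88, 8.03 and 7.91 untreated and 8.06, 7.95 and 8.03 in doxycycline. The groups overlapped, and the change was 0.07 (95% interval -0.04 to 0.19, limma adjusted p = 0.462), so the interval reaches no fall beyond 0.04. Of its 35 rows 26 lay above background, 27 had higher treated means and 8 lower, and none passed. The groups did not overlap in 5 rows, all higher in doxycycline and all above background, against 7.8% of all rows and 12.2% of those above background. 3 of its junction rows carried the same values on every array and so count the same signal more than once. VTCN1, which encodes B7-H4, had gene means from 4.68 to 4.77 on the 6 arrays, a change of -0.03 (95% interval -0.11 to 0.05, limma adjusted p = 0.760). A single one of its 31 rows lay above background: the exon region PSR01047291, singled out after its values were seen, held 11.48, 11.89 and 11.25 untreated and 11.68, 11.86 and 11.92 in doxycycline, while the next brightest row stayed below 6.29 on every array. The sources used here do not say what that row measures.

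The nectin-family ligands of TIGIT and CD226 lay above the background range in both groups. PVR had gene means of 8.63, 8.68 and 8.64 untreated and 8.79, 8.63 and 8.75 in doxycycline, which overlap, with a change of 0.08 (95% interval -0.03 to 0.18, limma adjusted p = 0.416). Of its 24 rows 19 lay above background and none passed the test. Among them PSR19008658, which had the smallest p, had 8.56, 8.74 and 8.57 against 8.34, 8.0 and 8.25, without overlap and against the direction of the gene mean (limma adjusted p = 0.214).

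PVRL2 had gene means of 8.55, 8.71 and 8.56 untreated and 8.77, 8.71 and 8.79 in doxycycline. Untreated array B and treated array B both held 8.71, so the groups overlapped, and the change was 0.15 (95% interval 0.03 to 0.26, limma adjusted p = 0.115). Without untreated array B the change was 0.20 and passed the test (limma adjusted p = 0.0164), and it did not pass in the other 5 fits with 1 array left out. Its rows lay on both sides of no change, and none passed the test. PSR19008771 had 9.34, 9.59 and 9.36 against 10.00, 9.80 and 9.93, with higher treated values on every array (log2 change 0.48, limma adjusted p = 0.130). Junction JUC19005233 had 6.99, 7.19 and 6.66 against 7.35, 7.68 and 7.93 (log2 change 0.71, limma adjusted p = 0.223). PSR19008765 had 7.72, 8.04 and 7.85 against 7.47, 7.45 and 7.57, lower on every treated array (log2 change -0.37, limma adjusted p = 0.234).

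LGALS9, which encodes galectin-9, a ligand of TIM-3, had both group means within the background range, with gene means from 4.82 to 4.89 on the 6 arrays and a change of -0.02 (95% interval -0.09 to 0.06, limma adjusted p = 0.833). Of its 36 rows 34 lay within that range. The exon region PSR17003770 held 6.48, 6.53 and 6.67 untreated and 6.67, 6.70 and 6.56 in doxycycline, and junction JUC17002148 held 6.38, 6.61 and 6.33 against 5.98, 6.78 and 5.95. Both lay above background by their mean over the 6 arrays, with overlapping groups, and neither passed the test. The gene has close copies in the genome (LGALS9B and LGALS9C), so its rows may also read those.

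CD47, the signal against phagocytosis, lay above the background range in both groups. Its gene means were 9.15, 9.09 and 9.21 untreated and 9.25, 9.27 and 9.27 in doxycycline. The treated values lay above the untreated ones on every array, as in 14.3% of all genes, yet the change of 0.11 (95% interval 0.02 to 0.20) did not pass over all genes (limma adjusted p = 0.145). One of its rows passed the test. The junction row JUC03014527 went from 6.41, 5.78 and 5.53 untreated to 8.16, 7.67 and 8.39 in doxycycline, without overlap. Its log2 change was 2.17 (SE 0.27, limma adjusted p = 0.0248), a measured 4.50-fold rise whose untreated mean lay within background, and at least 3.33-fold against the brightest background row. It was the single row that rose among the 281, where 0.451% of all rows did. Over the median of the rows, the CD47 change was -0.01, and the other 21 of the 22 rows above background had changes from -0.21 to 0.29.

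Set against the mean of the other bright rows of CD47 on the same array, the junction was higher by 2.18 in doxycycline than untreated, which did not pass the test over 275467 such rows (limma adjusted p = 0.0743). In that test 0.128% of all rows passed, none of the 108 rows of 7 of the genes did in limma, and 15 of the 108 had an unadjusted p below 0.05, as did 7.09% of all rows tested this way. The call of the junction row over all rows was kept in 1 of the 6 fits with 1 array left out, with an adjusted p of up to 0.0932. Alternative splicing of the CD47 cytoplasmic tail is known, but the sources used here do not say which exons this junction joins.

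**Figure D5:**
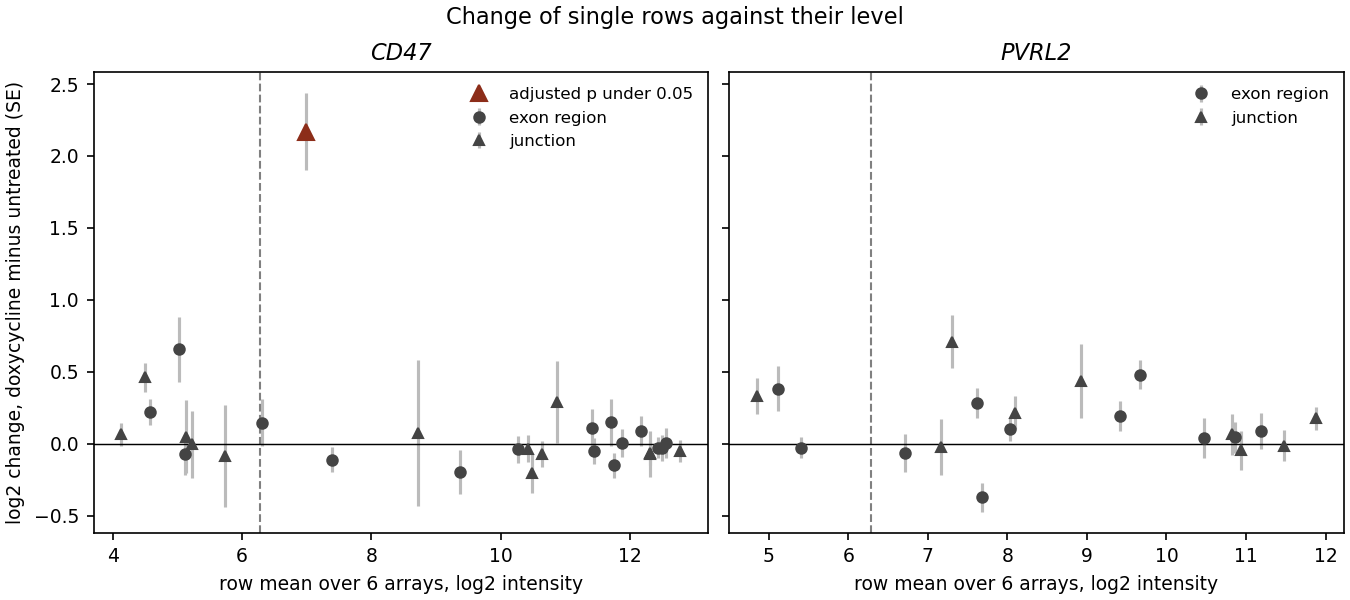
Log2 change with SE (vertical axis) of each row of CD47 (30 rows) and PVRL2 (20 rows) against its mean log2 intensity over the 6 arrays (horizontal axis); circles are exon regions, triangles junctions, and the dashed line is the brightest background row. In CD47 the junction at 2.17 stands apart from the other rows, which lie between -0.21 and 0.65, and in PVRL2 rows lie on both sides of 0.

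The genes that feed into or share the pathway were counted from lists of well-known members, beside a median change of -0.01 over all genes. For comparison with each list below, 6.06% of all genes rose and 3.84% fell at the same threshold, 9.9% in all. Of 29 other checkpoint and costimulatory genes, mostly of ligands and called other ligands below, 4 rose and 3 fell, with a median of -0.03. CEACAM1, a ligand of TIM-3 and of itself, rose by 0.40, both of its means lying within background (limma adjusted p = 5.48e-04). LGALS3, the galectin-3 gene, rose by 0.25 (limma adjusted p = 0.00172). CD24, whose product binds Siglec-10 on macrophages, rose by 0.85 over 5 rows (limma adjusted p = 0.00409). C10orf54, which encodes the checkpoint protein VISTA, rose by 0.22, again within background in both groups (limma adjusted p = 0.00834). The 3 that fell were the butyrophilin gene BTN3A1, the adenosine-producing ectoenzyme gene NT5E and HLA-E, by 0.18, 0.16 and 0.19, and they were named after their values were seen. HLA-E shares sequence with other HLA genes, so its rows may not be specific. Summarised by medians over rows, 1 fell and none rose in limma, and leaving out 1 array gave 0 to 2 that fell and 4 that rose.

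Among 15 measured genes of interferon-gamma and JAK-STAT signalling 4 rose and none fell in limma, with a median of 0.01. The receptor chain gene IFNGR1 rose by 0.26, STAT3 by 0.16, the phosphatase gene PTPN2 by 0.19 and SOCS3, a feedback inhibitor gene with both means in the background range, by 0.19. JAK2 and IRF1, which transmit the interferon-gamma signal to CD274, had changes of -0.15 and -0.09 (limma adjusted p = 0.166 and 0.196). STAT2 and JAK1, which had smaller p, did not pass either, with changes of -0.22 and -0.10 (limma adjusted p = 0.0945 and 0.103). IRF9 had no row naming it alone and was not used here. None of the 4 rose when rows were summarised by their median, and from 0 to 2 did when 1 array was left out.

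Of 17 genes of NF-kappaB, AP-1, MYC and hypoxia signalling 4 fell and 1 rose, with a median of -0.12. The AP-1 subunit gene JUN fell by 0.28 (limma adjusted p = 0.00346), MYC by 0.28 (limma adjusted p = 0.00624) and NFKBIA, the inhibitor that NF-kappaB itself induces, by 0.28 (limma adjusted p = 0.00706). NFKB2, named after its value was seen, fell by 0.18 (limma adjusted p = 0.0416), while REL rose by 0.20 (limma adjusted p = 0.0397). In the fits with 1 array left out 3 or 4 genes fell, 0 or 1 rose.

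Of 20 regulators of the PD-L1 and CD47 proteins 2 rose and none fell in limma, with a median of 0.03. CMTM4, whose product protects PD-L1 from degradation, rose by 0.63 (from 6.51 to 7.14, limma adjusted p = 1.92e-05), while its relative CMTM6 had a change of -0.03 (limma adjusted p = 0.707). TMUB1 rose by 0.17 (limma adjusted p = 0.0168). A single gene of the list rose with the median over rows, and likewise without untreated array C or without any 1 of the treated arrays A, B and C. Of 14 receptors and other partners of the ligands 1 rose, THBS1, which encodes a secreted partner of CD47, by 0.17 (limma adjusted p = 0.0323), and none did in 5 of the 6 fits with 1 array left out. PDCD1, the PD-1 gene, CTLA4, CD28 and TIGIT lay in the background range in both groups, and RGMB, a partner of PD-L2, had a change of -0.13 (limma adjusted p = 0.172).

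Markers of leukocytes were counted because those cells make many of the ligands. Of 17 measured markers 15, among them PTPRC, CD3D, CD3E, MS4A1 and CD14, lay in the background range in both groups, and the mean over the list ran from 5.21 to 5.29 on the 6 arrays. CD68, also a lysosomal gene of many cells, fell by 0.70 from 8.34 (limma adjusted p = 0.00169), and NCAM1, an adhesion molecule gene, rose by 0.30 (limma adjusted p = 0.00267). Summed over the list, the 3 untreated arrays lay between 88.9 and 89.9 and the 3 treated ones between 88.6 and 88.8. These sums include CD68, which fell, and the 15 markers in the background range, so they do not measure leukocyte content. The samples were cultures of an established cancer line and not tissue, so leukocytes are not expected in them, and none were looked for beyond these markers.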

How the data were processed

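Total RNA of 6 BT549 cultures was labelled with a FlashTag biotin kit, per the labels' protocols, and measured on arrays with exon-region and junction rows. FlashTag kits are best known for small RNA, and no source used here says how the kit bears on these intensities. The log2 intensities were used as the authors deposited them; the log2 scale was read from the values, while no source used here states the background correction, normalization or build. Partek is named, without a version, per the submitters' processing notes. Of 925032 rows, 345 controls were left out, and 672085 rows with 1 symbol gave means for 22085 genes.

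Doxycycline was compared with untreated by limma 3.58.1 (R 4.3.3; lmFit, eBayes, Benjamini-Hochberg over all features, threshold 0.05), over genes, over rows, and over rows above background minus the rest of their gene. The fits were also run on simulated data, with added shifts larger than the gene-level changes of the ligands. That run does not show how well changes of the ligands' size are called. The number of arrays, 3 per group, limits the precision. Intervals are 95%. Same-letter arrays correlated at -0.17, -0.03 and 0.22 in their deviations, while unlike-letter arrays ran from -0.41 to 0.44. So few values cannot show whether the arrays were paired, and the main fit did not use letters as pairs.

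The genes and lists were chosen with earlier results of these data known. Named were all 10 ligands, MIR200C and ZEB1, in each list the 4 genes of smallest p among those that passed (2 where none did), the 5 genes most like each ligand that passed, and up to 3 rows per gene with the smallest p besides rows unlike the rest. Some other list genes, such as JAK2, IRF1, CMTM6, ESR1, PGR and VIM, were named outside this rule. Alternatives changed the summary over rows, row kind, normalization, filter, prior, replicate block and arrays left out.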

Additional observations from a re-analysis of the deposited data

How the results depend on the processing

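CD274 and PDCD1LG2 stayed lower and past the threshold in limma under all 13 and 14 alternatives that gave a value, with changes of -0.66 to -0.42 and -1.16 to -0.74. Of 135 alternatives over the 10 genes, 129 kept direction and side of the threshold. With the median of the rows CD276 changed by -0.040, CD86 by 0.016 and CD47 by -0.013, and with brighter rows VTCN1 changed by 0.28, each opposite in sign to the mean and none past the threshold. CD86 ranged from -0.064 to 0.0055 with 1 array left out, and PVRL2 ranged from 0.12 to 0.20, passing at 0.20 without untreated array B. Leaving out dim genes removed CD274 itself, so 1 ligand fell. With 1 array left out 2 ligands fell and 0 to 1 rose, and single rows fell in 0 to 6 cases and rose in 0 to 1.

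With the median of the rows the related lists gave, for other ligands, 1 that fell and 0 that rose, for receptors 0 that rose, for interferon-gamma and JAK-STAT 0 that rose, for NF-kappaB and its companions 2 that fell and 0 that rose, and for protein regulators 1 that rose. With 1 array left out these were 0 to 2 and 4 for other ligands, 0 to 1 risen for receptors, 0 to 1 fallen and 0 to 2 risen for interferon-gamma and JAK-STAT, 3 to 4 fallen and 0 to 1 risen for NF-kappaB, and 1 to 2 risen for protein regulators. The cause was not tested.

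With the replicate letter as a block CD274 changed by -0.58 and PDCD1LG2 by -0.81, both still past the threshold, 2 single rows fell and 0 rose, 1 interferon-gamma gene fell and 0 NF-kappaB genes rose. No label says what the letters stand for, and the same-letter correlations cannot show whether the arrays were paired. Signals in the background range give no reliable size of change.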
